A study of Ovis aries with 18 samples.

Results

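In the pars tuberalis (PT) of castrated sheep, 2 of the 25197 genes counted were examined because their read counts were lower after 22 weeks than after 4 weeks of long photoperiod. The first, ENSOARG00000000618, is DCT in the annotation that the study gives for these gene IDs. The second, ENSOARG00000023160, carries no symbol in the sources used here and is given by its ID. Both were chosen by their counts at 22 against 4 weeks of long photoperiod, so that difference is described without a p-value. The mean of DCT after 4 weeks of long photoperiod was 41.7 times that after 4 weeks of short photoperiod, and at 22 weeks its animals overlapped those with 16 weeks of short photoperiod. ENSOARG00000023160 was lowest at 22 weeks of long photoperiod, below every animal on short photoperiod, while the means of the other 3 groups lay within a ratio of 1.56.

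The animals were neutered male Scottish Blackface sheep. SP4 and SP16 had spent 4 and 16 weeks on short days, LP4 and LP22 had spent 4 and 22 weeks on long days, and each group held 4 animals. All groups shared the breed and the castration, so the data describe sheep without testes. The late time point was 16 weeks on short and 22 weeks on long photoperiod, so durations were not matched. RNA-seq gave 18 libraries, since a repeat library existed for SP4 animal 1 and for LP4 animal 2, and reads of both libraries were summed. The labels number the samples of a group without saying that each is a separate animal, and they are called animals here.

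DCT encodes dopachrome tautomerase, an enzyme of the melanosome that acts after tyrosinase in the synthesis of the dark pigment eumelanin. It is best known from melanocytes and the retinal pigment epithelium, where TYRP1 encodes a closely related enzyme. The PT lies against the base of the hypothalamus. Its thyrotroph cells carry the melatonin receptor MTNR1A, read night length through it, and make thyroid-stimulating hormone from the subunits TSHB and CGA when days are long.

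A pair of LP4 libraries stood apart, the one labelled animal 3 and the earlier of those labelled animal 2. Their median correlations with the other libraries across genes were 0.429 and 0.702, against 0.923 to 0.952 for the other 16. Their TSHB level also went against the label. TSHB stood at 1.20 CPM in the library of animal 3 and at 8.89 CPM in the earlier library of animal 2, whereas LP4 animals 1 and 4 had 527 and 322 CPM and the repeat library of animal 2 had 271 CPM. CPM are reads per 1000000 gene reads after scaling of library totals by the trimmed mean of M-values (TMM). The LP4 levels and the fitted differences of both genes are therefore given for all 16 animals and again for 15 animals, with this pair left out and LP4 animal 2 given by its repeat library alone. Other levels are for 16 animals unless 15 are named. Gene reads per library ran from 1730773 to 4119508 in the other 16 libraries, and were 1088288 and 6331553 in the outlying libraries of LP4 animals 2 and 3.

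The tissue label was set beside 6 genes of PT thyrotrophs. The paper also reports TSHB in thyrotrophs of the pars distalis, and CHGA in other cells there. Their sum therefore cannot tell PT from pars distalis tissue. Animal 4 had the highest sum in SP4 and in SP16, at 2756 and 3644 CPM. It also had the highest summed pars distalis hormone level of each group, at 7705 and 5665 CPM. The summed level of the 6 genes lay between 1460 and 3644 CPM in all animals, and CGA, TSHB, EYA3, CHGA and MTNR1A were detected in each animal. The library of LP4 animal 3 reached its sum through CHGA, at 1724 CPM, the highest of all animals. It had 30.2 CPM of CGA, against at least 251 CPM in every other animal, and 7.44 CPM of EYA3, against 31.7 to 51.0 CPM in the others. TAC1 was at 0 in 2 animals of SP4, 2 of SP16 and 1 of LP4, the library of animal 3.

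DCT was scarce on short photoperiod. In SP4 it had 2.09, 3.65, 3.64 and 1.77 CPM in animals 1 to 4, from 12, 9, 8 and 4 reads. At that depth the exact Poisson 95% interval of animal 4 was 0.482 to 4.53 CPM, which covers counting error only and takes in the other 3 animals. In SP16 it had 7.53, 14.3, 3.05 and 13.6 CPM. Animals 1, 2 and 4 of SP16 lay above all SP4 animals, and animal 3 lay inside the SP4 range.

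After 4 weeks of long photoperiod DCT stood at 97.8, 64.4, 145 and 158 CPM in LP4 animals 1 to 4. The LP4 animal with the lowest level was still above every animal of the other 3 groups. With the outlying libraries left out, LP4 animals 1, 2 and 4 had 99.6, 52.8 and 160 CPM, and the same separation held. In bulk tissue, more cells of a type and more RNA per cell cannot be told apart. The high level was thus present in the library of LP4 animal 3, which lacked the TSHB level of a long-photoperiod PT. It was also present in both libraries of LP4 animal 2, at 88.0 CPM in the first and 51.7 CPM in the repeat.

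After 22 weeks of long photoperiod DCT stood at 20.7, 5.58, 13.0 and 15.9 CPM. All LP22 animals lay below all LP4 animals and above all SP4 animals. LP22 animal 2 was the lowest of its group, from 10 reads, and lay within the SP16 range. As group means, DCT had 2.79 ± 0.998 CPM in SP4, 9.60 ± 5.30 in SP16, 116 ± 43.2 in LP4 and 13.8 ± 6.33 in LP22 (SD, n = 4 each). It averaged 104 ± 53.9 CPM (SD, n = 3) in the LP4 animals that remained without the outlying libraries.

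**Figure D1:**
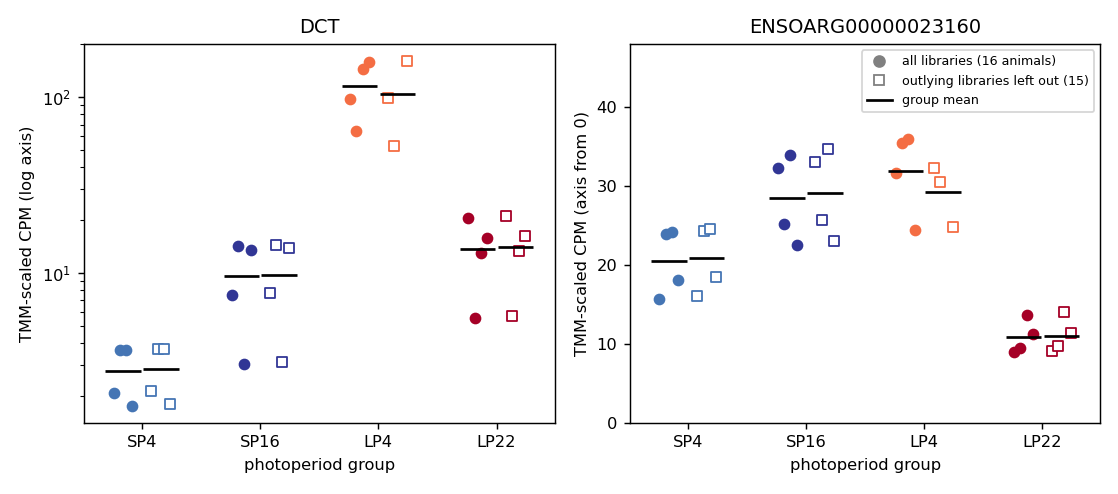
TMM-scaled CPM of DCT (log axis) and ENSOARG00000023160 (axis from 0) in each animal of the 4 photoperiod groups. Filled circles use all libraries (16 animals), open squares leave out the outlying LP4 libraries (15 animals), and horizontal bars are group means. DCT is highest in LP4, with a mean of 116 CPM in filled circles, and ENSOARG00000023160 is lowest in LP22, with a mean of 10.8 CPM.

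In order of level, DCT ran SP4, SP16, LP22, LP4. The neighbours SP4 and SP16 overlapped, as did SP16 and LP22, whereas LP22 and LP4 did not. The LP4 mean was 8.43 times the LP22 mean with all libraries and 7.40 times without the outlying ones. The fitted log2 fold change of LP22 against LP4 was −3.06 (SE 0.44) in 16 animals and −2.86 (SE 0.38) in 15. In this comparison, which chose the genes, 0.015% of 13299 genes were called lower in LP22 at an adjusted p under 0.05 by edgeR's quasi-likelihood test in 16 animals. In 15 animals 0.0223% of 13446 genes were called lower. Both genes were among those 2 and those 3, which follows from the choice and is no further evidence. Every LP22 animal lay below every LP4 animal for 3.81% of all genes tested in 16 animals and for 3.61% in 15.

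Against short photoperiod the LP4 mean of DCT was 41.7 times the SP4 mean with all libraries and 36.7 times without the outlying ones. The fitted log2 fold change was 5.40 (SE 0.52) and 5.25 (SE 0.46). LP4 against SP16 gave 3.62 (SE 0.46) in 16 animals and 3.47 (SE 0.40) in 15. The LP22 mean was 4.95 times the SP4 mean, with a log2 fold change of 2.34 (SE 0.51) and 2.38 (SE 0.54), and 1.44 times the SP16 mean. LP22 against SP16 gave a log2 fold change of 0.56 (SE 0.46) in 16 animals and 0.61 (SE 0.45) in 15, with overlapping animals. These comparisons share the LP4 or LP22 animals with the one that chose the genes, and so are given without p-values. Of all genes tested, 4.68% in 16 animals and 6.01% in 15 had every LP4 animal above every SP4 animal. The share with every LP4 animal above every SP16 animal was 3.04% and 5.92%, and that with every LP22 animal above every SP4 animal was 4.98% and 5.07%.

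ENSOARG00000023160 varied less. In SP4 it had 15.7, 23.9, 24.1 and 18.1 CPM in animals 1 to 4, and in SP16 it had 32.3, 25.2, 33.9 and 22.6 CPM. In LP4 it had 31.7, 35.5, 36.0 and 24.4 CPM. The SP16 and LP4 animals covered nearly the same span, and the lowest LP4 animal, number 4, was barely above the highest SP4 animal.

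In LP22 the gene had 8.93, 9.49, 13.7 and 11.2 CPM, from 19, 17, 41 and 26 reads. All 4 animals lay below every animal of the other 3 groups. With the outlying libraries left out, LP4 animals 1, 2 and 4 had 32.3, 30.6 and 24.8 CPM, which left the order of the groups' lowest and highest animals against LP22 as it was. The group means were 20.5 ± 4.22 CPM in SP4, 28.5 ± 5.49 in SP16, 31.9 ± 5.36 in LP4 and 10.8 ± 2.14 in LP22 (SD, n = 4 each). The LP4 mean of 3 animals, outlying libraries left out, was 29.2 ± 3.93 CPM (SD).

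In order of level, ENSOARG00000023160 ran LP22, SP4, SP16, LP4. SP4 and SP16 overlapped, and SP16 and LP4 overlapped, whereas LP22 was clear of its neighbour SP4. The LP4 mean was 2.94 times the LP22 mean with all libraries and 2.64 times without the outlying ones, with a log2 fold change of LP22 against LP4 of −1.55 (SE 0.23) and −1.37 (SE 0.21). The SP16 mean was 2.63 times the LP22 mean, and the SP4 mean 1.89 times. The log2 fold change of LP22 against SP16 was −1.39 (SE 0.23) in 16 animals and −1.38 (SE 0.20) in 15. LP22 against SP4 gave −0.90 (SE 0.23) and −0.86 (SE 0.20). Of all genes tested, 5.5% in 16 animals and 5.5% in 15 had every LP22 animal below every SP16 animal, and 4.5% and 4.41% had every LP22 animal below every SP4 animal.

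LP4 against SP4 gave ENSOARG00000023160 a log2 fold change of 0.65 (SE 0.22) in 16 animals and 0.51 (SE 0.19) in 15. The separation of these groups hung on the scaling. When library totals were used without TMM factors, LP4 ran from 23.9 to 32.8 CPM and SP4 from 15.5 to 26.6 CPM, so that they overlapped, and the log2 fold change was 0.34 (SE 0.23). LP22 still lay apart from LP4 on that scale, at 9.22 to 14.6 CPM, with a log2 fold change of −1.22 (SE 0.24). Leaving out the factors moved the median of all genes from −0.02 to 0.27 in LP22 against LP4 and from 0.03 to −0.23 in LP4 against SP4, by about as much as it moved ENSOARG00000023160. LP4 against SP16 gave 0.16 (SE 0.22) in 16 animals and −0.01 (SE 0.19) in 15.

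**Figure D2:**
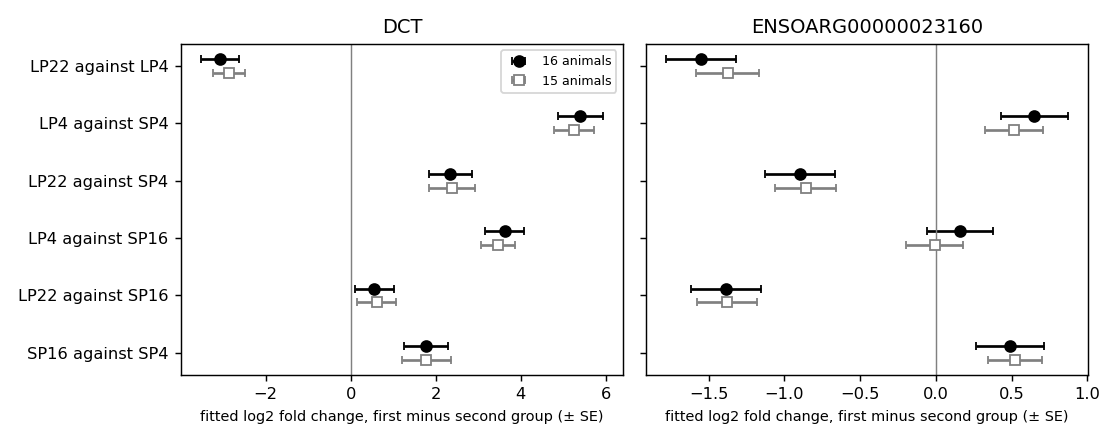
Fitted log2 fold changes (first minus second group, ± SE, horizontal axis) of DCT and ENSOARG00000023160 in the 6 pairwise comparisons, from 16 animals (filled circles) and 15 animals (open squares). The comparisons with LP4 carry the largest values for DCT, up to 5.40, and those with LP22 the largest for ENSOARG00000023160, down to −1.55.

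The ratio of DCT reads to ENSOARG00000023160 reads within an animal, with repeat libraries summed, uses no scaling factor. It was 0.0976 to 0.153 in SP4, 0.0900 to 0.600 in SP16, 1.81 to 6.47 in LP4 and 0.588 to 2.32 in LP22. With the outlying libraries left out, it was 1.73 to 6.47 in LP4. All LP4 animals were above all animals on short photoperiod in this ratio, and LP4 and LP22 overlapped. Across animals the log2 CPM of the 2 genes correlated at r = 0.160 over 15 animals and 0.308 over 16.

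The comparison of SP16 with SP4 contrasts no animal on long photoperiod, and it is the only one given with p-values for these genes. It was not wholly free of the long-photoperiod animals, which entered the same fit and so its filter, scaling and estimate of spread. DCT passed the filter on low counts only with them: in the 8 SP animals alone it did not pass, whereas ENSOARG00000023160 did. The p-values of DCT are therefore a description, and no conclusion is drawn from them. DCT had a log2 fold change of 1.78 (SE 0.52) in 16 animals, with an unadjusted p of 0.00332 and an adjusted p of 1 by edgeR's quasi-likelihood test. In 15 animals it was 1.78 (SE 0.58), with an adjusted p of 0.238. An SP16 animal was higher than an SP4 animal in 14 of 16 pairs, and the 2-sided exact permutation test over the 4 animals of each group gave p = 0.0857, where the smallest p it allows is 0.0286.

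ENSOARG00000023160 gave a log2 fold change of 0.49 (SE 0.22) between SP16 and SP4, with an unadjusted p of 0.043 and an adjusted p of 1, and 0.52 (SE 0.18) with an adjusted p of 0.27 in 15 animals by the same edgeR test. In the 8 SP animals alone edgeR gave 0.53 (SE 0.18) with an adjusted p of 0.254. It too was higher in SP16 in 14 of 16 pairs, with p = 0.114 by the exact permutation test. Neither gene passed the threshold between the durations of short photoperiod, from which no conclusion is drawn for DCT. In 16 animals edgeR called 0% of the 13299 genes in this comparison, 292 had an unadjusted p under 0.05 and DESeq2 called 3. In 15 animals edgeR called 0.00744% of 13446 genes, 1444 had an unadjusted p under 0.05 and DESeq2 called 33. The common coefficient of variation between animals, estimated by edgeR over all 4 groups, was 0.36 in 16 animals and 0.164 in 15. The lack of calls in 16 animals thus does not show that no gene differed.

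The animals with 2 libraries showed how far a level can move between libraries of the same label. In SP4 animal 1, ENSOARG00000023160 had 24.8 CPM in the first library and 11.3 CPM in the repeat, a ratio of 2.20. In LP4 animal 2 it had 45.3 and 29.9 CPM, a ratio of 1.51. DCT had 3.17 and 1.57 CPM in SP4 animal 1, from 6 reads each, and its ratio was 1.70 in LP4 animal 2. In all 4 cases the first library was higher. The repeat library of SP4 animal 1 lay inside the LP22 range of ENSOARG00000023160, so the separation of LP22 from SP4 rests for that animal on the reads of the first library.

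**Figure D3:**
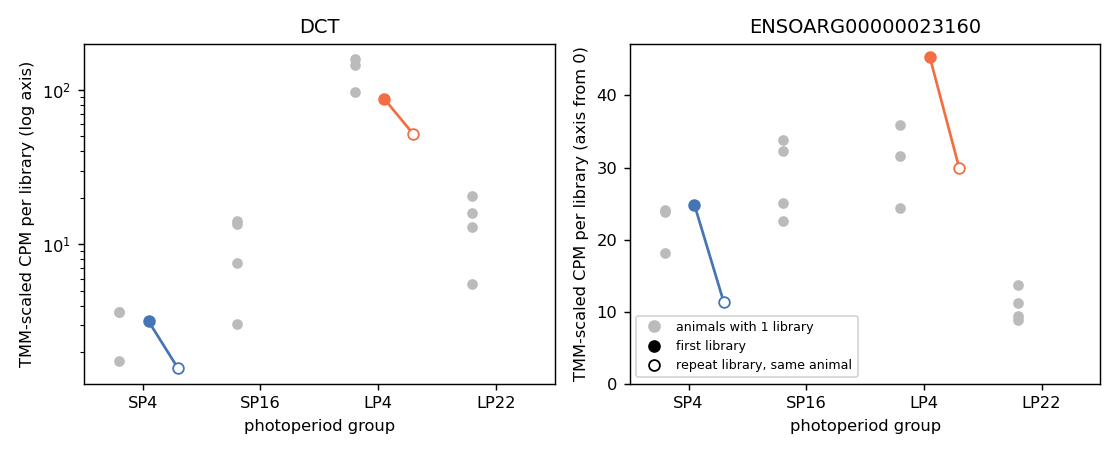
TMM-scaled CPM per library of DCT (log axis) and ENSOARG00000023160 (axis from 0) by photoperiod group. Grey points are animals with 1 library, and a line joins the first library (filled) to the repeat library (open) of SP4 animal 1 and of LP4 animal 2. The repeat is lower each time, by a ratio of 1.51 to 2.20, and for ENSOARG00000023160 in SP4 it reaches the LP22 points.

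The pigment pathway was followed through 12 gene symbols of pigment cells, of which 3 could be paired with an ID: TYRP1, KIT, a receptor that melanocytes need for survival, and SOX10, a transcription factor of neural crest and glia. The other 9 were not analysed here. The study names only genes that it lists as changed in some comparison of its data, so the list is not an independent sample of the pathway. TYRP1 and KIT had enough reads to be tested, and neither was called in either direction in any of the 6 comparisons, in 16 or 15 animals. Of all genes, 0.015% were called in LP22 against LP4, 0.203% in LP4 against SP4, 0.271% in LP22 against SP16, 0.18% in LP22 against SP4 and 0.173% in LP4 against SP16 in 16 animals. In 15 animals these shares were 0.0297%, 1.79%, 3.23%, 2.8% and 1.78%.

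TYRP1 had 3.14, 3.24, 2.73 and 3.54 CPM in SP4 and 5.21, 2.57, 4.32 and 7.85 CPM in LP4. LP4 animals 1, 3 and 4 lay above the SP4 range and animal 2 below it, in the group where DCT stood at 64.4 CPM or more. LP4 against SP4 gave TYRP1 a log2 fold change of 0.62 (SE 0.65, adjusted p = 0.55 by edgeR) in 16 animals and 0.70 (SE 0.70, adjusted p = 0.725) in 15.

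In SP16, TYRP1 had 19.9, 17.1, 2.38 and 19.6 CPM. The animal that was low, number 3, was also the lowest SP16 animal for DCT and for KIT (4.41 CPM against 13.6 to 15.9 CPM in the others). It was not the lowest for SOX10, which had 2.04 CPM in animal 3 and 1.00 CPM in animal 4. SP16 against SP4 gave TYRP1 a log2 fold change of 2.19 (SE 0.62, adjusted p = 1 by edgeR) in 16 animals and 2.16 (SE 0.57, adjusted p = 0.164) in 15. In LP22, TYRP1 had 7.99, 1.12, 14.7 and 5.60 CPM, and animal 2 was the lowest for DCT as well. Animal 2 was also the lowest for SOX10, at 1.12 CPM, but not for KIT, which had 13.4 CPM in animal 2 and 9.40 CPM in animal 1. LP22 against LP4 gave TYRP1 0.63 (SE 0.61, adjusted p = 0.519 by edgeR) in 16 animals and 0.60 (SE 0.63, adjusted p = 0.849) in 15. The fitted value of DCT in this comparison was negative.

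The summed level of TYRP1, KIT and SOX10 ran from 15.4 to 21.7 CPM in SP4, 8.83 to 39.4 in SP16, 16.9 to 28.9 in LP4 and 15.6 to 39.2 in LP22. No group was clear of another. SOX10 stood at 13.4 CPM in the library of LP4 animal 3 and at no more than 3.54 CPM in any other animal.

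Other cells of the pituitary were followed through 5 hormone genes of the pars distalis: PRL, GH1, LHB, FSHB and POMC. Their summed level was 136 to 500 CPM in LP4 and 583 to 4900 CPM in LP22, without overlap, and it was 81.5 to 7705 CPM in SP4 and 83.2 to 5665 CPM in SP16. Only the sum was separate: taken singly, each of the 5 genes overlapped between LP4 and LP22. PRL had 5.04 to 409 CPM in LP4 and 316 to 3549 CPM in LP22. All 5 had a higher fitted level in LP22 than in LP4, with a median log2 fold change of 1.89 in 16 animals, where the median of all genes was −0.02. None was called, with a lowest adjusted p of 0.292 by edgeR, in a comparison where only 0.015% of all genes were called. PTPRC, a leukocyte gene, had 6.24 to 14.0 CPM in LP4 and 8.93 to 59.2 CPM in LP22, and S100B, a gene of folliculostellate and glial cells, had 10.3 to 31.0 and 11.7 to 24.1 CPM. The part of these levels in the lower DCT and ENSOARG00000023160 of LP22 was not tested.

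TSHB, the long-photoperiod hormone subunit, was set beside DCT. It had 1.39 to 11.3 CPM in SP4 and 2.43 to 21.0 CPM in SP16 in 15 animals. In the scaling of 15 animals it had 320, 277, 147 and 289 CPM in LP22 and 538, 277 and 328 CPM in LP4. All LP22 animals were far above all short-photoperiod animals, and LP22 and LP4 overlapped. LP22 against LP4 gave TSHB a log2 fold change of −0.04 (SE 0.91, adjusted p = 0.977 by edgeR) in 16 animals and −0.56 (SE 0.37, adjusted p = 0.698) in 15. None of the thyrotroph genes tested was called in this comparison, 5 in 16 animals and 6 in 15. Of all genes, only 0.015% were called in 16 animals and 0.0297% in 15, so the lack of calls says little about these genes. In 15 animals the fitted value was negative for 4 of the 6, TSHB, EYA3, MTNR1A and CHGA, and positive for CGA and TAC1. The value furthest from 0 was that of CHGA, a granule protein of endocrine cells, at −2.14 (SE 0.43, adjusted p = 0.227 by edgeR) in 16 animals and −1.52 (SE 0.30, adjusted p = 0.14) in 15. CHGA had 136 to 346 CPM in LP22 and 400 to 1724 CPM in LP4, without overlap.

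The gene whose pattern was most like that of DCT was SHH, a secreted morphogen of the developing nervous system and pituitary. Likeness was Pearson's r of log2 CPM over 15 animals, among 13279 genes whose mean level reached 1 CPM, and is a description of animals that share their groups. SHH had r = 0.902 over 15 animals and 0.922 over 16, and ranked first of all genes both times. It had 0.443 to 1.62 CPM in SP4 from 1 to 4 reads, and 1.33 to 2.51 CPM in SP16. In LP4 it had 24.9, 18.0, 68.1 and 27.7 CPM, and in LP22 it had 9.87, 3.91, 9.69 and 9.04 CPM. All LP22 animals had SHH levels between those of the short-photoperiod animals and the LP4 animals, whereas for DCT the LP22 and SP16 animals overlapped. LP22 animal 2 was the lowest of its group for both genes.

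GLUL, which encodes glutamine synthetase, ranked 3 with r = 0.853 over 15 animals and 0.870 over 16, on a far smaller range: its group means ran from 297 CPM in SP4 to 513 CPM in LP4 in 15 animals. ENSOARG00000002788, which has no symbol here, ranked 2 with r = 0.862, but had r = 0.06 over 16 animals, where it stood at 14.4 CPM in the library of LP4 animal 3, below the 50.3 to 61.6 CPM of the other LP4 animals.

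**Figure D4:**
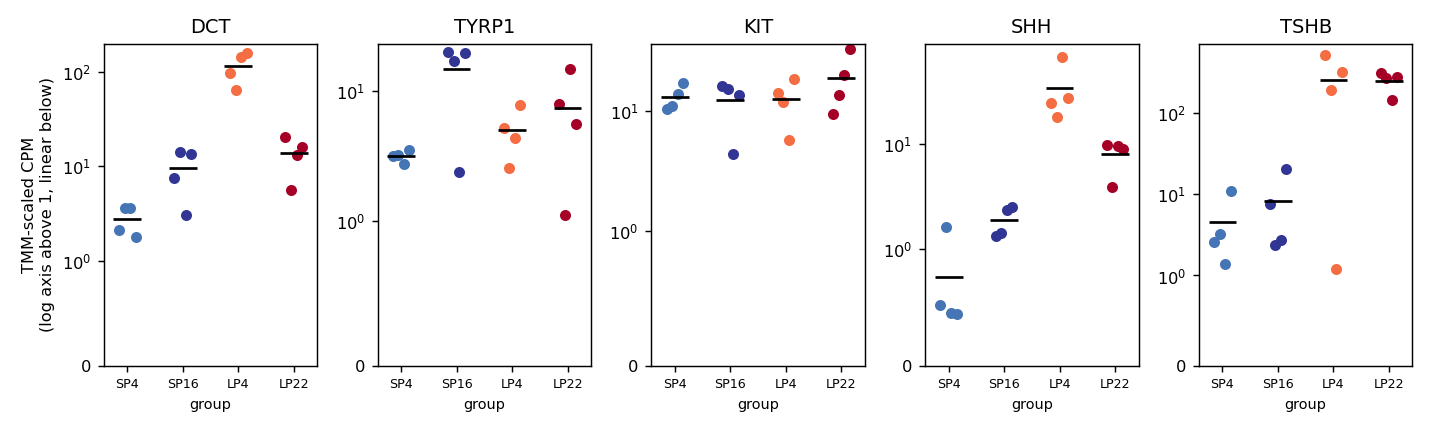
TMM-scaled CPM in each of the 16 animals for DCT, the pigment cell genes TYRP1 and KIT, SHH and TSHB, by group. The vertical axes are logarithmic above 1 CPM and linear below, and differ between panels, and horizontal bars are group means. SHH follows DCT with its highest values in LP4 (18.0 to 68.1 CPM), TYRP1 is highest in 3 SP16 animals, and TSHB is at 1.20 CPM in the library of LP4 animal 3.

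For ENSOARG00000023160 the likest gene was ENSOARG00000021767, also without a symbol, with r = 0.938 over 15 animals and 0.923 over 16. Its means were 45.9 ± 10.3 CPM in SP4, 56.3 ± 8.87 in SP16, 48.1 ± 7.85 in LP4 and 29.4 ± 5.84 in LP22 (SD, n = 4 each and n = 3 in LP4). DOK6, which encodes an adaptor protein of receptor tyrosine kinase signalling, ranked 3 with r = 0.883 and 0.869. It had 7.18 ± 0.40 CPM in SP4, 13.8 ± 3.94 in SP16, 10.1 ± 1.93 in LP4 and 4.24 ± 1.01 in LP22 on the same animals. The gene of rank 2, ENSOARG00000011894, had r = 0.887 over 15 animals and −0.214 over 16, where the library of LP4 animal 3 stood at 4.32 CPM. In 15 animals all 3 genes shared with ENSOARG00000023160 the lowest mean in LP22. They were picked for their likeness to it over these animals, so this follows from the choice and is no further evidence.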

How the data were processed

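The deposited files hold raw read counts per gene, which the authors made with Bowtie, SAMtools and HTSeq; the submitters' processing notes name the sheep build Oar_v3.1. Tool versions, annotation release and use of strand were not given in the sources used here. How reads of overlapping or near-identical genes were assigned is therefore not fully known, beyond that reads marked ambiguous counted for no gene. The HTSeq summary lines were left out of totals: of reads in genes, outside genes or ambiguous, 15.3 to 21.3% were in genes, and 31.0 and 52.6% in the outlying libraries of LP4 animals 2 and 3. The files carry no gene names, and 0 of the 25197 IDs matched the RefSeq table used here, so symbols are those of the study's own annotation of the same IDs, and no coordinates or sequences are given.

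Repeat libraries were summed per animal. Genes passing filterByExpr (minimum count 10, minimum total 15) were scaled by TMM and fitted with edgeR 4.0.16 (R 4.3.3) over all 4 groups by glmQLFit. All 6 comparisons were tested 2-sided with Benjamini-Hochberg adjustment over all genes, at 0.05. For the 2 genes, p-values are given for SP16 against SP4 alone. Standard errors come from the F statistic. Log2 CPM for correlations used a prior count of 2. P-values measure the spread between labelled samples, which may be technical in part. The steps were checked on simulated counts. Figures were drawn with matplotlib 3.10.9.

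The 2 genes, the marker lists and the tests were chosen with earlier results of these data known. The text names both genes, the 3 genes most like each, and markers paired with an ID. Alternatives were RLE or no scaling, no filter, DESeq2 1.42.0, a replicate block, first or repeat libraries only, the SP animals alone, 15 animals, and leaving out each animal.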

Additional observations from a re-analysis of the deposited data

Results flagged for a closer look

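The summed pars distalis hormone level had 1 animal far from the others in SP4 and in SP16. SP4 animal 4 stood at 7705 CPM and the other SP4 animals at 81.5 to 891 CPM, and SP16 animal 4 stood at 5665 CPM and the others at 83.2 to 644 CPM. In SP4 animal 4 DCT was at 1.77 CPM, the lowest of its group, and in SP16 animal 4 it was at 13.6 CPM, second highest. Of 28 groups of 4 animals examined in this way, 2 stood out, and chance alone gives 1.4. Neither gene had an animal that far from the others in any of the 4 groups.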

How the results depend on the processing

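Every fitted difference of DCT and ENSOARG00000023160 in SP16 against SP4, LP22 against LP4, LP4 against SP4 and LP22 against SP16 kept its sign under every alternative run. LP4 against SP16 is not among these comparisons. There ENSOARG00000023160 changed sign, from 0.16 (SE 0.22) in 16 animals to −0.01 (SE 0.19) in 15. In SP16 against SP4, ENSOARG00000023160 stayed short of the threshold throughout, with adjusted p of 0.254 to 1 by edgeR or DESeq2. For DCT the adjusted p ran from 0.238 to 1 by the same tests. No conclusion is drawn from it, since DCT passed the filter only with the long-photoperiod animals. The log2 fold change of SP16 against SP4 ran from 1.51 to 2.09 for DCT when 1 animal was left out. For ENSOARG00000023160 it ran from 0.37 to 0.59, and was 0.33 with first libraries only. DCT had too few reads to pass the filter in the SP animals alone, so that fit gives it no value. Without scaling factors, an alternative added after the data were seen, ENSOARG00000023160 moved by more than the spread between animals: to −1.22 in LP22 against LP4 and 0.34 in LP4 against SP4, where the median of all genes moved to 0.27 and −0.23. For LP22 against LP4, leaving out each animal gave −3.31 to −2.81 for DCT and −1.68 to −1.46 for ENSOARG00000023160. LP22 against SP16 for DCT ran from 0.24 to 0.82.

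Animals carry the numbers 1 to 4 in every group, and no label says that a number marks a shared origin. Deviations of same-numbered animals correlated at a mean of −0.0128 over 24 pairs. With the replicate block, SP16 against SP4 gave 1.75 for DCT and 0.49 for ENSOARG00000023160 (adjusted p of 1 each by edgeR), and in 15 animals 1.80 and 0.50; it changed no call. The 3 genes most like DCT over 15 animals shared 2 with those over 16, and the 3 most like ENSOARG00000023160 shared 1. Reads limit DCT most: SP4 held 33 in all.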
